A study of Mus musculus with 12 samples.

Results

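The genes described here are 39 genes of cell division: proteins that copy DNA, cyclins, and proteins that condense, align and part the chromosomes. They were chosen by name, and all 39 were found among the 21878 genes of the deposited expression table. RNA came from alveolar type 2 (AT2) cells, the surfactant-making cells of the alveolus that can also divide and replace lost epithelium. Cells were sorted from digested lungs of C57BL/6 mice as EpCAM+ CD24- Sca-1- cells without the lineage markers CD31, CD34 and CD45. There were 4 groups of 3 libraries. AT2-PBS and AT2-BLM came from Atg5 f/f mice, which the labels call wild type and which carry the floxed Atg5 alleles without Cre. Atg5-/- AT2-PBS and Atg5-/- AT2-BLM carried both floxed alleles with Nkx2.1-Cre (Nkx2.1-Cre;Atg5 f/f), and Cre is then made across the lung epithelium rather than in AT2 cells alone. BLM is bleomycin, a drug that breaks DNA and injures the alveolar epithelium, given into the trachea at 2 U/kg, and PBS is its vehicle. Mice were 8 to 12 weeks old. Cells were taken at day 14, although no day is named for the Atg5-/- AT2-PBS group. The study asked what autophagy, which needs Atg5, does in AT2 cells during injury, and these genes bear on the part of that question that concerns division.

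A dividing cell first licenses its replication origins, when Cdc6 and Cdt1 load the MCM helicase, and then copies its DNA with the sliding clamp Pcna and with deoxynucleotides from ribonucleotide reductase, thymidylate synthase and thymidine kinase. Genes of this step are commonly switched on by E2F factors. Cyclin A and B then rise, and kinases such as Plk1 and the Aurora kinases build the spindle. The anaphase-promoting complex, with its activator Cdc20 and the ubiquitin-conjugating enzyme Ube2c, finally marks cyclin B and securin for destruction. Genes of this late step often carry CCAAT boxes together with a CHR element, and the DREAM and MuvB complexes act through the CHR element. In the uninjured adult alveolus AT2 cells divide rarely, and after injury a share of them enters the cycle.

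Values are FPKM, the fragments of a gene scaled to the length of its transcript and to the mapped fragments of the library, so levels of different genes can be set side by side. FPKM summed to between 390141 and 549169 per library, and Pearson correlations of log2(FPKM + 1) between libraries of 1 group, across genes, lay between 0.938 and 0.987. Fragment counts were not used here and the absolute depth is unknown. Low values fell in steps that put the depth of the other 11 libraries at 0.999 to 1.15 times that of AT2-PBS 1. Atg5 itself was listed at 6.01 to 12.5 FPKM in the Atg5 f/f libraries and at 6.72 to 10.1 FPKM in the Atg5-/- libraries, so the deletion cannot be seen from whole-gene FPKM, and the genotype is that of the labels. Of 13 AT2 markers, 12 were at 1 FPKM or more in every library. Sftpc, which encodes surfactant protein C, was listed at 0 in 11 libraries and at 112570 FPKM in AT2-BLM 2, where an exact 0 can be a failed estimate. Y-linked genes were expressed in 5 libraries (AT2-PBS 2 and 3, AT2-BLM 3 and Atg5-/- AT2-BLM 2 and 3), although the methods describe male mice, so values within each kind of library are given beside the results they touch. The 6 leukocyte markers summed to 6.53 to 44.2 FPKM in AT2-PBS, 40.6 to 105 in AT2-BLM, 534 to 771 in Atg5-/- AT2-PBS and 41.1 to 179 in Atg5-/- AT2-BLM. The summed markers of macrophages, neutrophils, fibroblasts, airway epithelium and liver also had their highest group median in Atg5-/- AT2-PBS.

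In AT2-PBS the 39 genes spanned a wide range of levels. Pcna, the sliding clamp, was the highest at 32.4 ± 9.33 FPKM (mean ± SD, n = 3 here and below), followed by Cdc20 at 10.4 ± 2.23 FPKM. The lowest were the kinetochore proteins Cenpf at 0.0877 ± 0.0653 and Cenpe at 0.152 ± 0.148 FPKM. Between 22 and 29 of the 39 genes reached 1 FPKM in an AT2-PBS library, against 35 to 36 in an AT2-BLM library. The mean log2(FPKM + 1) over the 39 genes was 1.73, 1.44 and 1.56 in AT2-PBS 1 to 3 and 2.32, 2.88 and 2.74 in AT2-BLM 1 to 3. It was 1.97, 1.95 and 1.58 in Atg5-/- AT2-PBS 1 to 3 and 2.12, 3.06 and 2.54 in Atg5-/- AT2-BLM 1 to 3. Every BLM library therefore lay above every PBS library of both genotypes on this mean, and the widest spread within a group was that of Atg5-/- AT2-BLM. In that group replicate 2 held the highest value for 35 of the 39 genes and replicate 1 the lowest for 33. In AT2-BLM, replicate 1 was the lowest for 32 genes. Bulk FPKM cannot tell more dividing cells from more RNA per dividing cell.

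**Figure D1:**
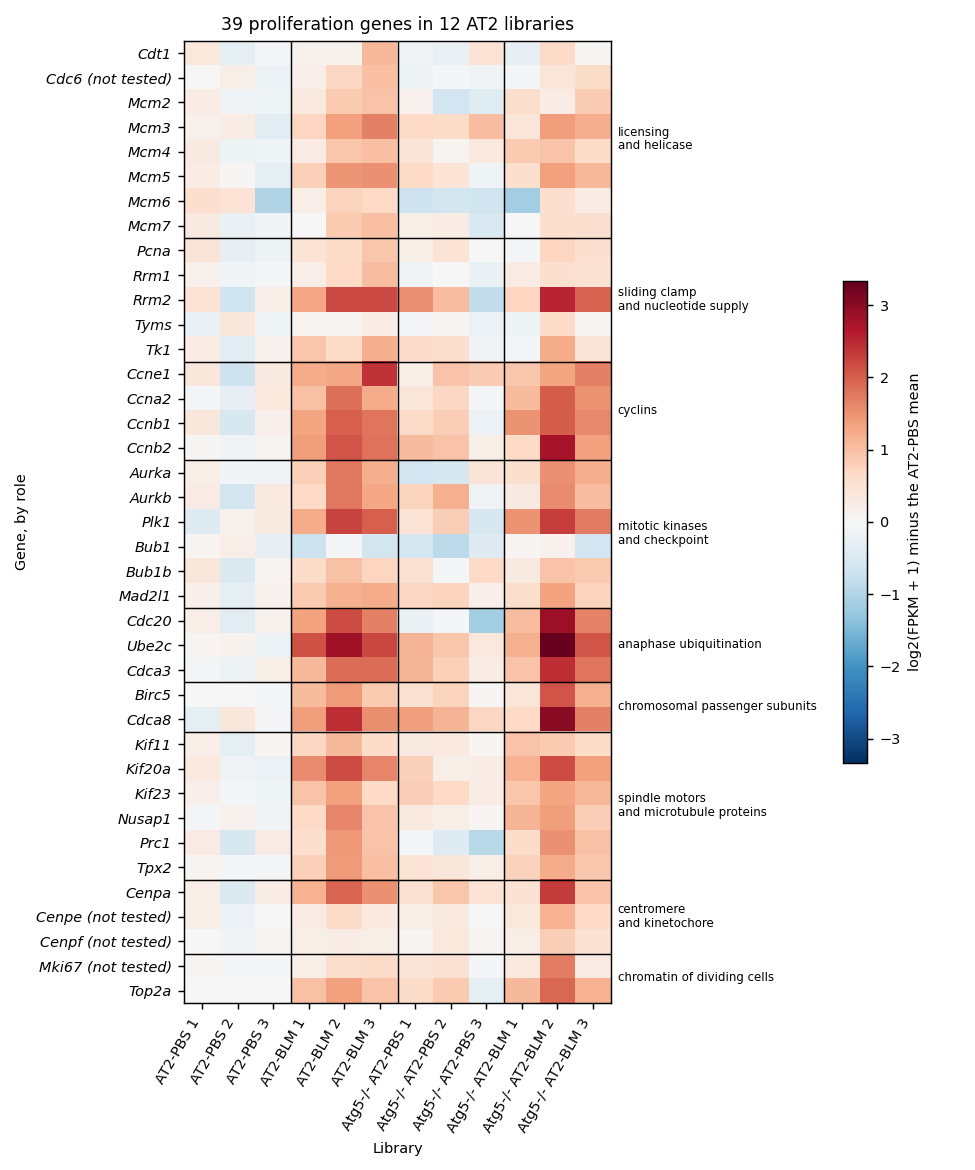
Each row is 1 of the 39 proliferation genes, grouped by role, and each column is 1 library. Colour is log2(FPKM + 1) minus the mean of the 3 AT2-PBS libraries, and red fills most of the rows of the cyclin and mitotic genes in AT2-BLM and Atg5-/- AT2-BLM, with Atg5-/- AT2-BLM 2 the deepest and Bub1 an exception.

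Differences were tested on log2(FPKM + 1) with limma over the 10675 genes that reached 1 FPKM in 3 or more of the 12 libraries, all 12 in 1 fit. A gene was called, by the study's criterion, when the unadjusted p was below 0.05 and the change was 1.4-fold or more on this scale, which understates changes of genes near 0. Benjamini-Hochberg adjusted p are over all genes tested. Of the 39 genes, 35 were tested. Cdc6, Cenpe, Cenpf and Mki67 were too low. A gene that passed only through the group in which it is high had to differ, so counts among the 35 describe these genes and are not by themselves evidence of a change. With 3 libraries a side, an exact two-sided permutation test reaches no p below 0.1. The labels do not say whether libraries of a group came from separate mice, and p-values measure the spread between these libraries.

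BLM raised most of these genes in Atg5 f/f AT2 cells. Of the 35 tested, 30 were called higher in AT2-BLM relative to AT2-PBS and 0 lower, beside 20.6% of all genes called higher and 7.77% called lower. An adjusted p below 0.05 was found for 24 of them, beside 13.4% of all genes in that direction. Their median log2 change was 1.10, and that of all genes tested was 0.17. For 29 of the 35, every AT2-BLM library lay above every AT2-PBS library, beside 28.9% of all genes. The 5 genes not called were Cdt1, Mcm6, Mcm7, Tyms and Bub1. Among the 12 tested genes of DNA replication 8 were called higher, with a median log2 change of 0.69. Among the 23 tested cyclin and mitotic genes 22 were called higher, with a median of 1.26. With each library left out in turn, 25 to 31 of the 35 were called higher, beside 16.6% to 22.1% of all genes. The split over all genes depended on scaling: with quantile normalization 12.4% were called higher and 12.9% lower and their median was 0.0030, while 27 of the 35 genes were called higher and 0 lower with a median of 0.95. Other markers moved in this comparison too. All 6 leukocyte markers (median log2 change 1.35), 6 of 12 macrophage, 5 of 5 transitional alveolar cell (median 1.86) and 4 of 7 alveolar type 1 cell markers were called higher. So were 4 of 5 liver markers, while 3 of 3 tested airway markers were called lower (median -1.65). Of 12 tested AT2 markers 3 were called lower and 1 higher (median -0.23). The transitional markers summed to 438 to 644 FPKM in AT2-PBS and 1078 to 2720 FPKM in AT2-BLM. The part of all these markers in the result was not tested. Among libraries without Y-linked expression the median log2 difference was 0.94, with 32 of 35 genes higher (2 AT2-BLM libraries against 1), and among those with it 1.28, with 34 of 35 higher (1 against 2).

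All 3 genes of the ubiquitination group rose, and Ube2c had the largest change of the 35. Ube2c (mm9 chr2:164595398-164604322), the ubiquitin-conjugating enzyme of the anaphase-promoting complex, was at 7.15, 7.35 and 5.80 FPKM in AT2-PBS 1 to 3, against 32.5, 53.7 and 35 FPKM in AT2-BLM 1 to 3. All AT2-BLM libraries were well above the highest AT2-PBS library, and the log2 change of 2.39 (standard error 0.42) had an adjusted p of 0.00425 in limma. Cdc20 (mm9 chr4:118105506-118109957), the activator that brings substrates to that complex, was at 12.0, 7.82 and 11.3 FPKM in AT2-PBS and at 27.6, 49.1 and 34.8 FPKM in AT2-BLM, and its log2 change was 1.73 ± 0.42 (standard error here and below). Cdca3, an F-box-like adaptor also named Tome-1, went from 1.57, 1.36 and 2.04 FPKM to 4.55, 8.58 and 8.52 FPKM, a log2 change of 1.59 ± 0.36. In each of these 3 genes the ranges of the groups were separate.

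All 4 cyclins rose with BLM. Cyclin B1 (Ccnb1), the partner of Cdk1 at entry into mitosis, was at 1.79, 0.48 and 1.41 FPKM in AT2-PBS and at 4.36, 7.47 and 6.37 FPKM in AT2-BLM, with a log2 change of 1.69 ± 0.31 (limma, adjusted p = 0.00519). Ccna2, the cyclin of S phase and G2, went from 1.20, 0.905 and 1.98 FPKM to 3.53, 7.21 and 4.51 FPKM, a log2 change of 1.34 ± 0.30. Ccne1, the cyclin of entry into S phase, had 1.09, 0 and 0.98 FPKM in AT2-PBS, against 2.78, 2.95 and 7.51 FPKM in AT2-BLM. Its log2 change was 1.65 ± 0.37, and AT2-BLM 3 stood well above the other two. The second B-type cyclin, Ccnb2, rose from 2.82 ± 0.269 to 12.2 ± 3.05 FPKM.

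Kinases and checkpoint genes of mitosis rose as well, with Bub1 apart from the rest. Plk1, which drives spindle assembly and mitotic entry, was at 1.02, 1.99 and 2.35 FPKM in AT2-PBS and at 5.45, 11.9 and 9.84 FPKM in AT2-BLM, a log2 change of 1.83 ± 0.37 (limma, adjusted p = 0.00798). The Aurora kinases Aurka (spindle poles) and Aurkb (centromere and midzone) changed by 1.26 ± 0.34 and 1.24 ± 0.42 in log2, and Aurkb had an adjusted p of 0.062 in limma. Mad2l1, which holds back Cdc20 until chromosomes are attached, went from 3.48, 2.21 and 3.38 FPKM to 6.23, 8.05 and 8.31 FPKM, a log2 change of 1.09 ± 0.24. Bub1b, its partner in the same checkpoint complex, changed by 0.77 ± 0.27. The checkpoint kinase Bub1 was at 2.56, 2.99 and 1.84 FPKM in AT2-PBS and at 1.09, 2.36 and 1.25 FPKM in AT2-BLM, a difference of -0.45 ± 0.26 that was not called and the only negative one of the 35.

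The spindle group moved together, and 6 of 6 were called higher, beside 20.6% of all genes. Kif20a, a motor of the central spindle needed for cytokinesis, was at 1.46, 0.826 and 0.729 FPKM in AT2-PBS and at 4.89, 8 and 5.14 FPKM in AT2-BLM. Its log2 change of 1.80 ± 0.29 had the lowest adjusted p of the 35 genes, 0.00282 in limma. Kif23, the motor of the centralspindlin complex, went from 1.39, 1.08 and 0.941 FPKM to 3.14, 4.48 and 2.39 FPKM. Prc1, which bundles the midzone microtubules, was at 4.52, 2.14 and 4.48 FPKM and then at 5.75, 11.4 and 7.87 FPKM, a log2 change of 0.99 ± 0.33 with an adjusted p of 0.0569 in limma. Tpx2, the activator of Aurka on the spindle, was at 0.828, 0.649 and 0.68 FPKM in AT2-PBS and at 1.95, 3.60 and 2.44 FPKM in AT2-BLM. Nusap1, a microtubule-binding protein, was at 0.698, 0.938 and 0.65 FPKM and then at 1.80, 4.38 and 2.39 FPKM. Kif11, the motor that pushes spindle poles apart, changed by 0.80 ± 0.20 from a level of 0.271 ± 0.233 FPKM. It reached 1 FPKM in 4 libraries, all of them BLM libraries. Kif11 was thus tested only through the groups in which it is high, and its call is not evidence of a change. In all 6 genes each AT2-BLM library was above each AT2-PBS library, beside 28.9% of all genes.

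Chromosome proteins followed the same direction. Top2a, the topoisomerase that untangles sister chromatids, was at 0.834, 0.84 and 0.818 FPKM in AT2-PBS and at 2.58, 3.73 and 2.55 FPKM in AT2-BLM, a log2 change of 1.10 ± 0.30 (limma, adjusted p = 0.0288). The chromosomal passenger subunits Cdca8 (borealin) and Birc5 (survivin) rose by 1.81 ± 0.48 and 1.11 ± 0.35 in log2, and Cenpa, the histone H3 variant of centromeres, by 1.54 ± 0.41. Mki67, whose protein Ki-67 coats mitotic chromosomes and is the usual stain for cycling cells, was at 0.417, 0.282 and 0.273 FPKM in AT2-PBS and at 0.551, 0.989 and 1.05 FPKM in AT2-BLM. The 2 ranges were separate, but at these levels Mki67 was not tested, and without the filter on low values its log2 difference was 0.48 ± 0.34 and not called. Mki67 and Top2a, which are widely used to mark dividing cells, were thus both under 1 FPKM in every AT2-PBS library, while Ube2c and Cdc20 were at 5.80 FPKM or more.

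**Figure D2:**
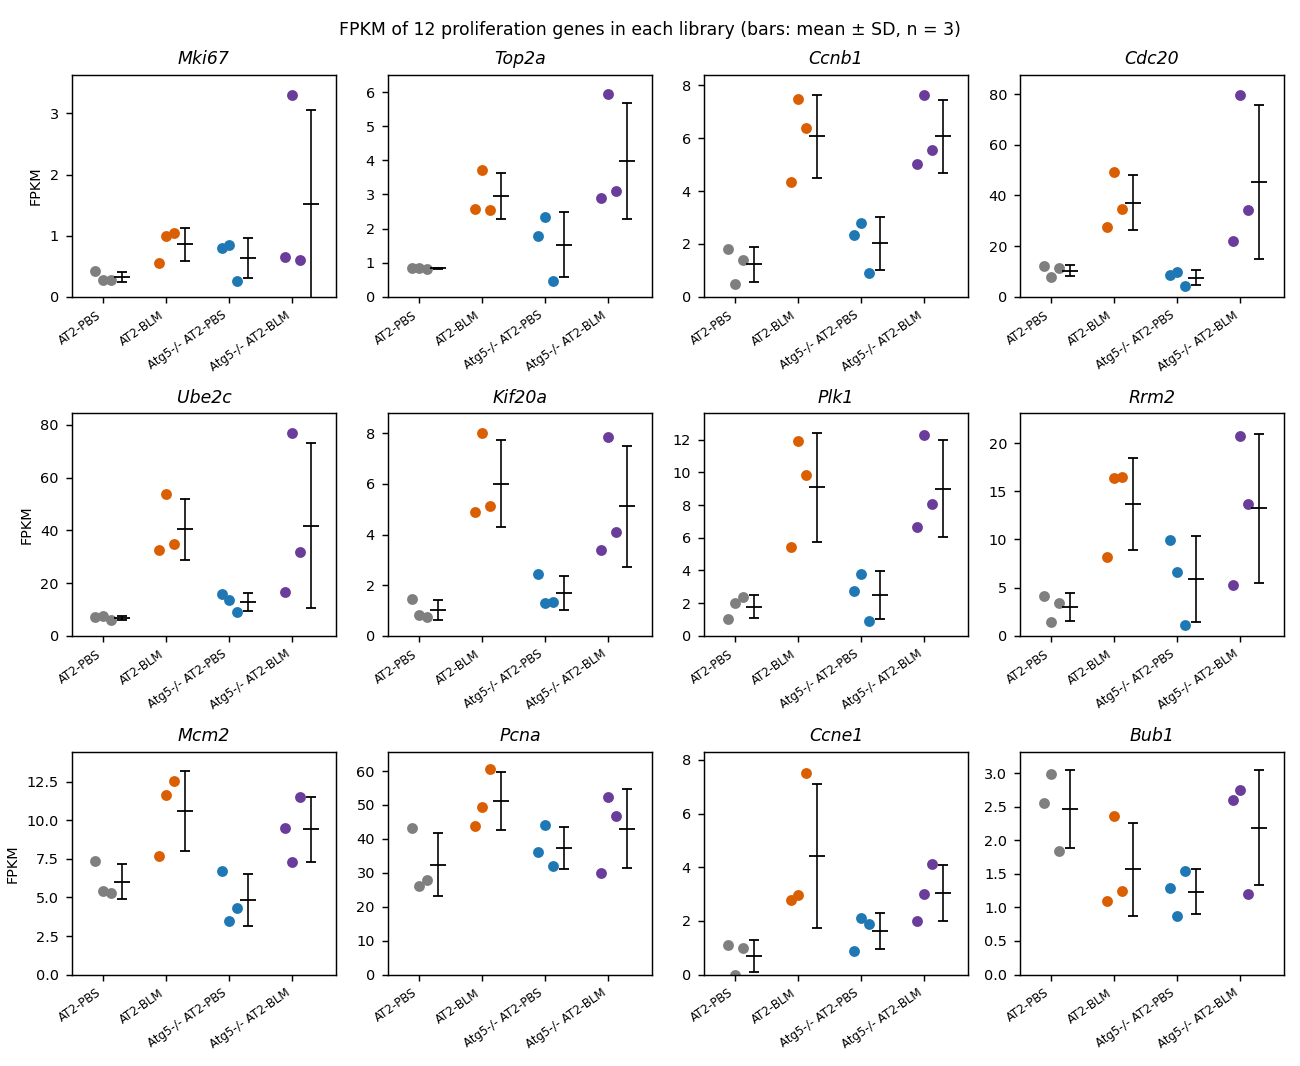
FPKM of 12 proliferation genes (vertical axes, each with its own scale from 0) in the 4 groups. Points are libraries 1 to 3 from left to right, and bars are mean ± SD (n = 3). AT2-BLM points lie above AT2-PBS points in every panel but that of Bub1, and for Ube2c and Cdc20 the Atg5-/- AT2-BLM points run from below to above the AT2-BLM range, up to 76.8 and 79.8 FPKM.

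Replication genes had the smaller median change. Rrm2, the regulatory subunit of ribonucleotide reductase, stood above the others, at 4.16, 1.38 and 3.38 FPKM in AT2-PBS and 8.16, 16.4 and 16.5 FPKM in AT2-BLM, a log2 change of 1.90 ± 0.59 (limma, adjusted p = 0.0457). Its partner Rrm1, the catalytic subunit, changed by 0.64 ± 0.20. Pcna and Tyms have near-identical processed pseudogene copies, and how reads shared with such copies were counted is not given in the sources used here. Pcna went from 43.1, 26.2 and 28.0 FPKM to 43.7, 49.3 and 60.5 FPKM, so that AT2-BLM 1 was only just above AT2-PBS 1, and its log2 change of 0.66 ± 0.24 had an adjusted p of 0.0749 in limma. Of the 6 helicase subunits, Mcm3 and Mcm5 changed the most, by 1.25 ± 0.31 and 1.26 ± 0.29 in log2. Mcm2 was at 7.35, 5.44 and 5.31 FPKM in AT2-PBS and at 7.67, 11.7 and 12.6 FPKM in AT2-BLM, a change of 0.71 ± 0.25 with an adjusted p of 0.0681 in limma. Mcm4 was also called, at 0.74 ± 0.22. Mcm6 and Mcm7 differed by 0.55 ± 0.45 and 0.62 ± 0.30, with overlapping ranges, and were not called. Thymidine kinase Tk1 changed by 0.92 ± 0.33, while thymidylate synthase Tyms differed by 0.14 ± 0.23 and was not called. Of the licensing factors, Cdt1 differed by 0.45 ± 0.33 and was not called, and Cdc6, not tested, was at 0.254 ± 0.177 FPKM in AT2-PBS and 0.972 ± 0.546 FPKM in AT2-BLM.

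The promoters of these genes were read from RefSeq (GRCm38.p6, 250 bases before to 50 after each start site, both strands). A promoter was in the table for 34 of the 39 genes, 36 promoters in all. Ccna2, Aurkb, Kif20a, Mcm4 and Tpx2 had none. The CHR letters TTTGAA were in 16 of 23 promoters of cyclin and mitotic genes (69.6%), in 1 of 13 of replication genes (7.69%), that of Mcm2, and in 17.9% of all 32851 promoters of the table. The letters CCAAT were in 82.6% of the cyclin and mitotic, 69.2% of the replication and 37.4% of all promoters. All 16 mitotic promoters with TTTGAA also held CCAAT, a pair present in 6.95% of all promoters. The E2F-type letters TTTNNCGC were in 7 of 13 replication promoters (53.8%), in 0 of 23 cyclin and mitotic ones and in 5.17% of all. The 23 include that of Ccne1, the cyclin of entry into S phase. A match of letters is not a bound site, and other forms of these elements were not searched. The stretches below lie upstream of the start site and show, for 5 mitotic and 3 replication genes, the matched letters in capitals. On the other strand CHR reads TTCAAA and CCAAT reads ATTGG, and the E2F-type letters read GCGNNAAA.
Cdc20, chr4:118437344-118437443, minus strand: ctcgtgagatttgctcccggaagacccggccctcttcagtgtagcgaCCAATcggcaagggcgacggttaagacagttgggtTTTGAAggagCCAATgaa
Ube2c, chr2:164769829-164769928, plus strand: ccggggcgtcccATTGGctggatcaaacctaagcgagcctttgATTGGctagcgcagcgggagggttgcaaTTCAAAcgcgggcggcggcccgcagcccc
Top2a, chr11:99024190-99024289, minus strand: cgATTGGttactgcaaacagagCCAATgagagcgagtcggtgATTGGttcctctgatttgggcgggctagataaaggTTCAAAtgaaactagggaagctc
Kif11, chr19:37376282-37376381, plus strand: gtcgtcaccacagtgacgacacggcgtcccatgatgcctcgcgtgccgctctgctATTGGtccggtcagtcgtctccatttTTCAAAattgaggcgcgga
Mki67, chr7:135716380-135716509, minus strand: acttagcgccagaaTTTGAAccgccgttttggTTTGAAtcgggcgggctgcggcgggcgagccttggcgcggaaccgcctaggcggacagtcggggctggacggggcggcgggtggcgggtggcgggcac
Mcm6, chr1:128359706-128359835, minus strand: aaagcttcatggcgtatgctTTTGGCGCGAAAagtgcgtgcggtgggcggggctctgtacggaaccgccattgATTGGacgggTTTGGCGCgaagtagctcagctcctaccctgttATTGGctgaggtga
Mcm5, chr8:75109349-75109508, plus strand: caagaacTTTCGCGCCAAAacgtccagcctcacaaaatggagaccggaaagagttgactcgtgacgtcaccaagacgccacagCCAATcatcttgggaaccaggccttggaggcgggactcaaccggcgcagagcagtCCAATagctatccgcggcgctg
Cdc6, chr11:98907991-98908150, plus strand: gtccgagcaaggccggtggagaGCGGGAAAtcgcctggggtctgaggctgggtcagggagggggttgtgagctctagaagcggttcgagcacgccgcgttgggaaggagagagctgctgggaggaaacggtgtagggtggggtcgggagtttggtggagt
In Cdc20, Ube2c, Top2a and Kif11 the CHR letters lie between 18 and 29 bases before the start site, with 1 to 3 CCAAT boxes in the same 100 bases. Mki67 holds 2 copies of TTTGAA further up, at 116 and 98 bases before it. Top2a has a further copy of the CHR letters beyond the stretch shown, at 179 bases before its start site. In other mitotic genes (Aurka, Bub1b, Cdca3, Cdca8, Cenpa, Cenpf, Kif23 and Plk1) the CHR letters lie only after the start site. They begin there at bases 3 to 41, so the stretches shown are not typical of the group. In Mcm5 the 2 E2F-type matches overlap on opposite strands and form 1 longer block. In Mcm6 the upper 2 do so, and the third stands apart, at 47 bases before the start site.

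BLM also raised many of these genes in Atg5-/- AT2 cells. Between Atg5-/- AT2-BLM and Atg5-/- AT2-PBS, 19 of 35 were called higher and 0 lower, beside 7.66% of all genes called higher and 10.7% called lower. An adjusted p below 0.05 was found for 8 of them, beside 2.42% of all genes higher and 6.26% lower. All 35 log2 differences were positive, with a median of 0.63 against 0.06 over all genes tested, and 16 genes had separate ranges, beside 13.1% of all genes. Of the 19 genes, 15 were cyclin or mitotic genes and 4 were replication genes (Mcm2, Mcm4, Mcm5 and Rrm1). Cdc20 had the largest change, from 8.66, 9.70 and 4.12 FPKM to 21.9, 79.8 and 34.2 FPKM, a log2 change of 2.31 ± 0.42 (limma, adjusted p = 0.00445). Plk1 went from 2.76, 3.79 and 0.873 FPKM to 6.65, 12.3 and 8.05 FPKM, a log2 change of 1.59 ± 0.37. Prc1 went from 3.47, 2.37 and 1.38 FPKM to 5.98, 12.0 and 7.94 FPKM, a log2 change of 1.5 ± 0.33. In each of these 3 genes the lowest BLM library was above the highest PBS library.

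The other 5 genes past the adjustment were Aurka, Ccnb1, Ccna2, Kif20a and Nusap1. Ccnb1 was at 2.36, 2.81 and 0.893 FPKM with PBS and rose to 5.01, 7.64 and 5.55 FPKM with BLM, and Ccna2 went from 2.05, 2.72 and 1.28 FPKM to 3.85, 8.35 and 5.51 FPKM. Kif20a was at 2.46, 1.29 and 1.33 FPKM and then at 3.39, 7.85 and 4.11 FPKM. Nusap1 was at 1.19, 1.01 and 0.855 FPKM and then at 2.82, 3.59 and 2.09 FPKM. The spindle group was again called higher in 6 of 6, beside 7.66% of all genes, and these include Kif11, tested only through BLM libraries. Tpx2 went from 1.34, 1.24 and 0.979 FPKM to 1.95, 3.03 and 2.23 FPKM and Kif23 from 2.78, 2.36 and 1.55 FPKM to 3.06, 4.30 and 3.60 FPKM.

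The spread within Atg5-/- AT2-BLM was wide for many genes, with replicate 1 low and replicate 2 high. Ube2c was called at 15.8, 13.6 and 8.89 FPKM against 16.5, 76.8 and 31.9 FPKM, a log2 change of 1.4 ± 0.42 with an adjusted p of 0.0627 in limma. Top2a was called at 1.78, 2.33 and 0.473 FPKM against 2.89, 5.93 and 3.09 FPKM, and Cdca3 at 4.79, 3.56 and 2.16 FPKM against 4.11, 13.6 and 8.15 FPKM, where the ranges overlap. Rrm2, at 9.94, 6.65 and 1.13 FPKM against 5.23, 20.8 and 13.6 FPKM, differed by 1.16 ± 0.59 and was not called. Ccne1, at 0.862, 2.13 and 1.89 FPKM against 2.00, 2.99 and 4.11 FPKM, differed by 0.62 ± 0.37 and was not called, nor was Mad2l1, at 5.38, 5.62 and 3.50 FPKM against 5.01, 9.12 and 5.70 FPKM. Pcna was at 36.2, 44.0 and 31.9 FPKM against 30.0, 52.4 and 46.7 FPKM, a difference of 0.17 ± 0.24. Mcm2 was called, at 6.71, 3.48 and 4.32 FPKM against 9.49, 7.27 and 11.5 FPKM. Mki67, not tested, was at 0.795, 0.841 and 0.254 FPKM against 0.651, 3.30 and 0.606 FPKM, so that 1 library held the group's high mean. With each library left out in turn, 13 to 23 of the 35 genes were called higher, beside 5.32% to 10.7% of all genes. The 13 were without Atg5-/- AT2-BLM 2, where 10.7% of all genes were called higher. Among libraries without Y-linked expression (1 BLM against 3 PBS) the median log2 difference was 0.23, with 23 of 35 genes higher. Here all 6 leukocyte markers were called lower, from 534 to 771 FPKM summed with PBS to 41.1 to 179 FPKM with BLM. So were 3 of 3 tested airway, 5 of 5 tested fibroblast and 9 of 12 macrophage markers, beside 10.7% of all genes. The airway markers summed to 22702 to 83933 FPKM with PBS and 1064 to 2129 FPKM with BLM. Of 12 tested AT2 markers 11 differences were positive and 2 were called higher, as were 5 of 7 alveolar type 1 cell markers, beside 7.66% of all genes. The part of these markers in the result was not tested.

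During BLM, loss of Atg5 was not accompanied by a detectable change in any of the 35 genes. Comparing Atg5-/- AT2-BLM with AT2-BLM, 0 were called in either direction and limma gave 0 an unadjusted p below 0.05, beside 2.04% of all genes called higher, 3.12% called lower and 7.88% at that p. With median-ratio scaling 2.51% of all genes were called higher and 2.44% lower, and again 0 of the 35. The adjusted p was below 0.05 for 0 of the 35, beside 0.00937% of all genes in the higher direction. All 35 pairs of ranges overlapped, while 4.91% of all genes had separate ranges higher and 8.49% lower. The median log2 difference was -0.15, against -0.05 over all genes, with 14 genes positive and 21 negative, and the estimates lay between -0.66 for Mcm6 and 0.30 for Bub1. These data do not show that the levels were equal: the 95% confidence intervals had a median half-width of 0.67 in log2. The differences were 0.01 ± 0.31 for Ccnb1 (95% interval -0.67 to 0.69), 0.11 ± 0.42 for Cdc20 (-0.79 to 1.02), -0.19 ± 0.42 for Ube2c (-1.11 to 0.73) and 0.01 ± 0.37 for Plk1 (-0.80 to 0.82). Replication genes leaned lower, with 10 of 12 negative and a median of -0.25, while the median of the 23 cyclin and mitotic genes was 0.01. Pcna differed by -0.27 ± 0.24 and Mcm2 by -0.15 ± 0.25.

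This count depended on Atg5-/- AT2-BLM 2. Without it, 4 genes were called lower with Atg5 loss: Ccnb2 by -0.75, Cenpa by -0.83, Tk1 by -0.73 and Ube2c by -0.75 in log2, each with an adjusted p of 0.661 in limma, beside 3.07% of all genes called lower in that fit. Leaving out any other library of the 2 groups gave 0 calls in either direction. By Y-linked expression the median turned: it was -0.43 among libraries without it (1 Atg5-/- AT2-BLM against 2 AT2-BLM, 4 of 35 genes higher) and 0.091 among those with it (2 against 1, 23 of 35 higher). No test of these splits was made. Other markers differed between these 2 groups. All 5 transitional alveolar cell markers were called lower with Atg5 loss (median log2 difference -1.07), beside 3.12% of all genes, and 0 had an adjusted p below 0.05 in limma. They summed to 1078 to 2720 FPKM in AT2-BLM and 434 to 953 FPKM in Atg5-/- AT2-BLM. Of 7 alveolar type 1 cell markers 2 were called lower and 0 higher, and 0 of 6 leukocyte markers were called. The part of these markers in the result was not tested.

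**Figure D3:**
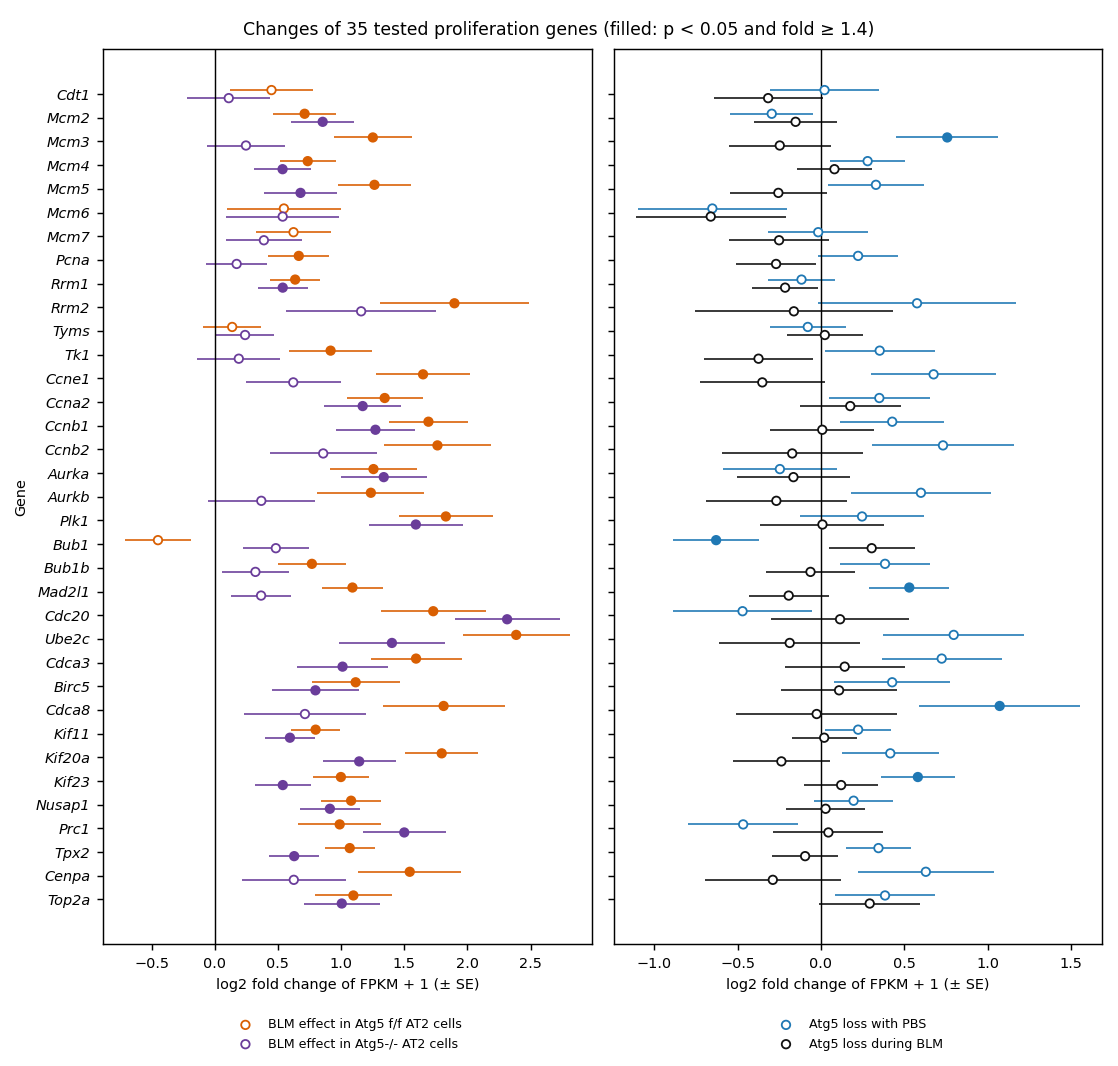
Log2 fold change of FPKM + 1 with its standard error for each of the 35 tested genes, the BLM effect in each genotype on the left and the effect of Atg5 loss with each treatment on the right. Filled points passed the criterion. BLM effects lie right of 0 for 34 of 35 genes in Atg5 f/f and 35 of 35 in Atg5-/- AT2 cells, and the open points of Atg5 loss during BLM all lie between -0.66 and 0.30.

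Without injury, the share of these genes called with Atg5 loss was near that of all genes. Between Atg5-/- AT2-PBS and AT2-PBS, 4 of 35 were called higher and 1 lower, beside 14.1% and 5.16% of all genes. By limma 0 had an adjusted p below 0.05, beside 9.92% of all genes higher and 1.31% lower, while 5 had an unadjusted p below it. The median log2 difference was 0.35 against 0.02 over all genes, with 26 of 35 positive, and 10 genes had separate ranges in the higher direction and 1 in the lower, beside 18.1% and 10.8% of all genes. The 4 genes called higher were Cdca8 (1.07 ± 0.48), Mcm3 (0.76 ± 0.31), Kif23 (0.58 ± 0.22) and Mad2l1 (0.53 ± 0.24). Cdca8 was at 0.957, 2.08 and 1.27 FPKM in AT2-PBS, against 5.33, 4.25 and 2.82 FPKM in Atg5-/- AT2-PBS. Mcm3 was at 2.67, 2.93 and 1.55 FPKM and at 4.23, 4.05 and 5.74 FPKM. Bub1 was lower, at 1.30, 0.872 and 1.54 FPKM against 2.56, 2.99 and 1.84 FPKM in AT2-PBS, a change of -0.63 ± 0.26. Replicate 3 of Atg5-/- AT2-PBS was the lowest of its group for 27 of the 39 genes, and without it 8 of 35 were called higher, beside 14.1% of all genes. With quantile normalization 0 were called higher and Bub1 was called lower, while 11.3% of all genes were called higher and 14% lower. Among libraries without Y-linked expression (3 against 1) the median was 0.13 and 23 of 35 genes were higher. All 6 leukocyte markers were called higher in this comparison, at 534 to 771 against 6.53 to 44.2 FPKM summed, as were all 12 macrophage and all 5 liver markers (1470 to 2526 against 3.34 to 401 FPKM summed for liver). So were 5 of 5 tested fibroblast, 4 of 4 neutrophil and 2 of 3 tested airway markers. Of 12 tested AT2 markers 5 were called lower and 1 higher (median log2 difference -0.39), beside 5.16% and 14.1% of all genes. The part of all these markers in the calls was not tested.

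**Figure D4:**
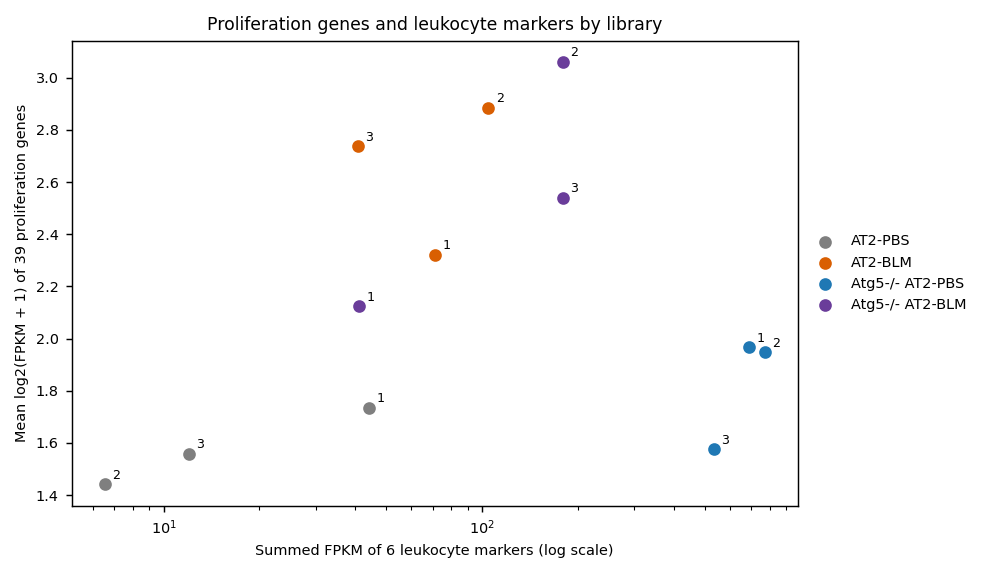
Mean log2(FPKM + 1) of the 39 proliferation genes (vertical axis) against the summed FPKM of 6 leukocyte markers (horizontal log axis) in each of the 12 libraries, numbered by replicate. The Atg5-/- AT2-PBS libraries have the highest marker sums, 534 to 771 FPKM, and proliferation means of 1.58 to 1.97, below those of all 6 BLM libraries.

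The size of the BLM effect was then compared between genotypes as an interaction in the same fit, where a negative value is a smaller rise, or a larger fall, in Atg5-/- AT2 cells. Of the 35 genes, 1 was called higher (Bub1, 0.93 ± 0.37) and 1 lower (Mcm3, -1.0 ± 0.43), beside 5.02% and 15.2% of all genes. By limma 0 had an adjusted p below 0.05, beside 0.778% of all genes higher and 7.11% lower, while 2 had an unadjusted p below it. The median was -0.42 against -0.09 over all genes, and 6 of 35 were positive. Bub1 differed by -0.45 with BLM in Atg5 f/f cells and by 0.48 in Atg5-/- cells, neither called, and was at 2.60, 2.75 and 1.20 FPKM in Atg5-/- AT2-BLM, where replicate 3 overlapped the Atg5-/- AT2-PBS range. Mcm3 was at 4.42, 7.65 and 9.59 FPKM in AT2-BLM, against 3.40, 7.77 and 6.71 FPKM in Atg5-/- AT2-BLM. For the 5 genes with the largest BLM effects in Atg5 f/f cells the interaction was -0.98 ± 0.60 (Ube2c), -0.74 ± 0.84 (Rrm2), -0.24 ± 0.53 (Plk1), -1.10 ± 0.68 (Cdca8) and -0.65 ± 0.41 (Kif20a), none of them called. With quantile normalization the median over all genes turned to 0.14 and that of the 35 was -0.12, with 12.4% of all genes called higher and 11.0% lower. Without Atg5-/- AT2-BLM 2, 8 genes were called lower (Ccnb2, Cdca8, Cenpa, Kif20a, Mad2l1, Mcm3, Tk1 and Ube2c), beside 16.7% of all genes in that fit, so that their share is near that of all genes. Of these, Ube2c and Ccnb2 had adjusted p of 0.0446 and 0.0482 in limma, beside 7.34% of all genes past the adjustment in that direction.

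Other genes of the cycle were counted in the same way. Of the 106 genes that the deposited annotation places in KEGG Cell cycle and that are not among the 39, 86 were tested, and 24 were called higher and 4 lower in AT2-BLM relative to AT2-PBS, with a median of 0.23, beside 20.6% and 7.77% of all genes and a median of 0.17. Of 28 such genes of KEGG DNA replication 24 were tested and 4 called higher (Rfc4, Fen1, Lig1 and Prim1), beside 20.6% of all genes. Among 29 tested replication fork proteins, a list that overlaps the previous one, 10 were called higher and 0 lower, beside the same 20.6% and 7.77%. Rfc4, a subunit of the clamp loader, went from 7.84, 5.75 and 8.79 FPKM to 23.6, 28.8 and 27.9 FPKM, a log2 change of 1.73 ± 0.28 (limma, adjusted p = 0.00286), and Fen1, the flap endonuclease of Okazaki fragments, changed by 1.29 ± 0.30. Gins3, a subunit of the replicative helicase, and Orc6, of the origin recognition complex, changed by 1.24 ± 0.27 and 0.94 ± 0.28. During BLM, Atg5 loss gave 0 calls among these fork proteins and among the KEGG DNA replication genes, beside 2.04% of all genes called higher and 3.12% lower. In Atg5-/- AT2 cells BLM gave 2 of the 29 fork proteins higher (Rfc4 and Cdc45) and 1 lower (Rpa3). Over all genes 7.66% were called higher and 10.7% lower, so the fork proteins did not stand out there.

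Of 7 cyclin-dependent kinases and D cyclins, 3 were called higher with BLM in Atg5 f/f cells and 0 lower, beside 20.6% and 7.77% of all genes. Cdk1, the kinase of mitotic entry, was at 2.45, 1.64 and 2.27 FPKM in AT2-PBS and 4.68, 8.40 and 6.46 FPKM in AT2-BLM, and without Atg5 at 2.59, 3.14 and 0.999 FPKM with PBS and 3.16, 16.2 and 6.16 FPKM with BLM. Its BLM effect was 1.25 ± 0.44 in log2 in Atg5 f/f and 1.37 ± 0.44 in Atg5-/- cells, with adjusted p of 0.0672 and 0.0768 in limma, and the 2 genotypes differed during BLM by 0.12 ± 0.44. Cyclin D1 (Ccnd1), which couples growth signals to the cycle, rose from 20.6 ± 8.09 to 74.0 ± 23.7 FPKM and from 20.5 ± 6.11 to 62.6 ± 13.8 FPKM in the 2 genotypes. Ccnd3 was also called higher with BLM in both. Cdk4, the partner of the D cyclins, was at 83.7 ± 11.3, 85.1 ± 4.98, 71.6 ± 10.7 and 76.7 ± 4.11 FPKM with PBS and BLM in Atg5 f/f cells and then with PBS and BLM in Atg5-/- cells, and was called in none of the comparisons. Ccnd2 and Cdk6 were called higher in Atg5-/- AT2-PBS relative to AT2-PBS, by 0.74 ± 0.16 and 0.59 ± 0.17, both with an adjusted p below 0.05 in limma. Atg5-/- AT2-PBS had the highest leukocyte markers, whose part in these 2 values was not tested.

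Of 6 tested inhibitors of the kinases, 3 were called higher in AT2-BLM (Cdkn1a, Cdkn2b and Cdkn2d), beside 20.6% of all genes. Cdkn1a (p21), which blocks cyclin-dependent kinases and is a known target of p53, was at 73.7, 18.7 and 30.6 FPKM in AT2-PBS and at 303, 238 and 276 FPKM in AT2-BLM, a log2 change of 2.92 ± 0.36 (limma, adjusted p = 0.000945). Without Atg5 it was at 66.4, 99.5 and 73.5 FPKM with PBS and at 107, 131 and 137 FPKM with BLM, a difference of 0.65 ± 0.36 that was not called. During BLM it was lower with Atg5 loss by -1.12 ± 0.36, called, with separate ranges and an adjusted p of 0.607 in limma. With PBS it was higher by 1.15 ± 0.36, also called, with overlapping ranges and an adjusted p not below 0.05 in limma. Its interaction of -2.27 ± 0.52 had an adjusted p of 0.0193 in limma. Cdkn2b (p15) rose from 10.1 ± 0.53 to 36.4 ± 30.4 FPKM in AT2-BLM, where replicate 3 was at 71.5 FPKM. Cdkn1b (p27) was called higher with Atg5 loss during BLM (0.78 ± 0.26) and with PBS (0.82 ± 0.26), with adjusted p of 0.607 and 0.0634 in limma. Cdkn2a was listed at 0 in all 12 libraries.

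Among 15 tested genes of the RB, E2F and DREAM list 2 were called higher with BLM in Atg5 f/f cells, beside 20.6% of all genes. These were E2f4 (0.75 ± 0.14) and E2f1 (0.68 ± 0.25). Foxm1, a factor that drives late cycle genes, was at 0.483, 0.337 and 0.492 FPKM in AT2-PBS and 0.318, 1.70 and 2.32 FPKM in AT2-BLM, a difference of 0.67 ± 0.34 that was not called. During BLM, Atg5 loss gave 0 calls in this list. Of the 86 tested genes of KEGG Cell cycle, the same comparison gave 4 higher and 6 lower, beside 2.04% and 3.12% of all genes, among them Pttg1, Hdac1, Myc and Ep300. Pttg1 encodes securin, which keeps sister chromatids together until Cdc20 and Ube2c act. It was at 15.3, 13.4 and 16.9 FPKM in AT2-PBS and at 2.90, 4.73 and 3.48 FPKM in AT2-BLM, a change of -1.80 ± 0.24 (limma, adjusted p = 0.00109) opposite to that of 30 of the 35 genes. In Atg5-/- AT2-BLM it was at 7.10, 14.1 and 7.67 FPKM, higher than in AT2-BLM by 1.14 ± 0.24 with separate ranges and an adjusted p of 0.511 in limma. Myc, a driver of growth and cycle entry, was at 6.74, 5.46 and 19.5 FPKM in AT2-BLM, against 3.34, 1.37 and 3.43 FPKM in Atg5-/- AT2-BLM, a called change of -1.50 ± 0.45 with an adjusted p of 0.607 in limma. Within Atg5-/- AT2 cells Myc fell with BLM, by -2.10 ± 0.45 in log2 (limma, adjusted p = 0.0126).

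**Figure D5:**
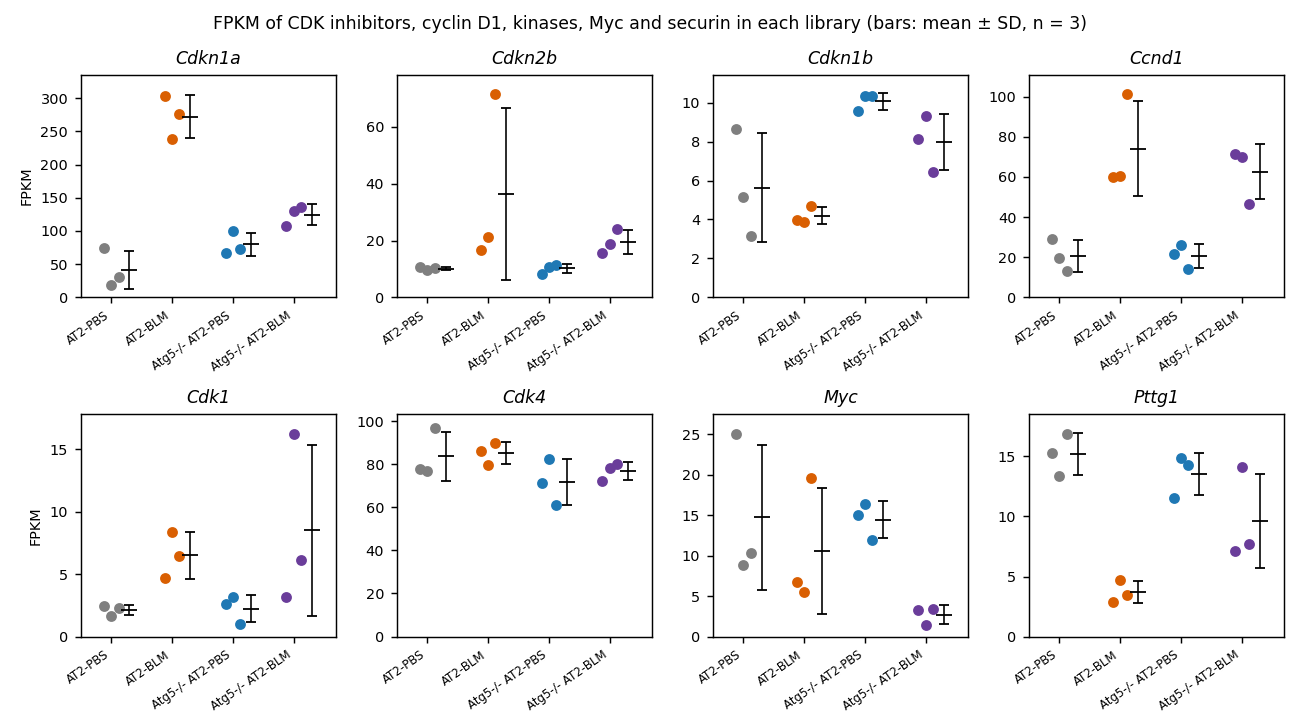
FPKM (vertical axes from 0) of 8 regulators of the cycle in the 4 groups, with points for libraries 1 to 3 and bars for mean ± SD (n = 3). Cdkn1a is at 238 to 303 FPKM in AT2-BLM and at 107 to 137 FPKM in Atg5-/- AT2-BLM, Pttg1 is lowest in AT2-BLM, and Cdk4 is at 61.1 to 96.6 FPKM in all 12 libraries.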

How the data were processed

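RNA-seq of sorted AT2 cells was analysed in 12 samples, 3 in each of 4 groups taken from the labels. For AT2-PBS 3 the title's number was used, since the description gives another. The authors deposited 1 table of FPKM per gene and sample. Per the methods, libraries were TruSeq Stranded mRNA, read on an Illumina HiSeq, trimmed with Trimmomatic, aligned to mm9 with STAR, quantified with Cufflinks and then normalized with a further package. The submitters' processing notes list Trimmomatic 0.36, HISAT2 2.2.1.0, Cufflinks 2.2.1 and HTSeq 0.9.1, so neither the aligner nor whether the deposited FPKM carry that last step is settled. FPKM hold no fragment counts, and precision rests on 3 libraries a group. FPKM estimates of low genes are imprecise, and 27 gene names had been turned into dates by a spreadsheet.

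The deposited FPKM were tested as log2(FPKM + 1) with limma 3.58.1 (R 4.3.3, moderated variances with a mean trend) over genes at 1 FPKM or more in 3 or more samples, with Benjamini-Hochberg adjustment. The fit was tested on simulated data. The members, roles and gene lists were chosen with earlier results of these data known. Values in every sample are given for Mki67, Top2a, Pcna, Mcm2, Rrm2, Ccnb1 and Cdk1 and for the 12 members with the lowest p in any comparison between 2 groups. From the other lists, the 4 called genes of lowest p in each comparison were eligible to be named, and Cdk1, Cdk4, Ccnd1, Cdkn1a and Foxm1 always were. Other genes given by library (Bub1, Mcm3, Cdca8) were chosen after their values were seen. Alternatives were another pseudocount, no filter, quantile normalization, median-ratio scaling, a replicate block, a fit of the compared groups only, no variance trend, adjusted p, and leaving out each library. A covariate for Y-linked expression, and libraries split by it, were added after seeing the data. Promoters came from RefSeq tables (GRCm38.p6), gene positions from GENCODE M1 (mm9). Figures were drawn with matplotlib 3.10.9.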

Additional observations from a re-analysis of the deposited data

Results flagged for a closer look

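Among the 39 genes and the genes named from the other lists, the BLM effect of 15 differed between the genotypes by the same criterion. It was tested as the interaction in the limma fit (log2, Atg5-/- minus Atg5 f/f). Over all genes 5.02% were called higher and 15.2% lower. Genes of the other lists could be named because they were called in this same interaction, so the 15 cannot be set against those shares. Both adjusted p below 0.05 belonged to genes outside the 39: Cdkn1a, with an interaction of -2.27 (adjusted p = 0.0193), and Pttg1, with 1.29 (adjusted p = 0.0367). Among the 39 genes they were Bub1 at 0.93 and Mcm3 at -1.0. The D cyclin and kinase genes were Ccnd2 at -0.82 and Cdk6 at -0.63. The E2F genes were E2f4 at -0.50 and E2f5 at 0.65. The replication fork genes were Gins3 at -1.09, Pold4 at -0.75 and Rpa3 at -0.68. The remaining genes of the KEGG cell cycle list were Hdac1 at -1.02, Myc at -1.60, Ywhag at -0.74 and Ywhaq at 0.53. The interaction also takes in the difference between the PBS groups, and Atg5-/- AT2-PBS had the highest leukocyte marker sum (534 to 771 FPKM), whose part in these values was not tested.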

How the results depend on the processing

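The BLM effect in Atg5 f/f cells gave 25 to 31 genes called higher with any 1 library left out and 0 to 1 lower (1 without AT2-BLM 2). With an adjusted p below 0.05, 0 genes were called in either direction for Atg5 loss with PBS and for the interaction, and 8 were called higher for BLM in Atg5-/- cells, where leaving out 1 library gave 13 to 23. For Atg5 loss during BLM, leaving out 1 library gave 0 to 4 genes lower, and the median among libraries with Y-linked expression was 0.091 against -0.15. For Atg5 loss with PBS, 4 genes were called higher, but 2 without the filter on low values, 0 with quantile normalization, 2 with median-ratio scaling, 7 with only the compared groups, and 0 to 8 with 1 library left out (0 without AT2-PBS 3, 2 and 1 without Atg5-/- AT2-PBS 1 and 2, 8 without Atg5-/- AT2-PBS 3), and 0 to 2 were called lower. For the interaction, 1 gene was called lower, but 2 with a pseudocount of 0.1, 0 without the filter, 0 with quantile normalization, 2 with a replicate block, 2 with the Y-linked covariate, and 0 to 8 with 1 library left out (3 without AT2-PBS 1 or AT2-BLM 1, 8 without Atg5-/- AT2-BLM 2), and 0 to 1 were called higher. Over all genes, leaving out 1 library gave 16.6% to 22.1% higher for BLM in Atg5 f/f cells and 5.32% to 10.7% in Atg5-/- cells. For Atg5 loss during BLM it gave 1.4% to 4.68% lower. Atg5 loss with PBS gave 11.1% to 14.2% higher in the other settings named and 12.3% to 15.6% with 1 library left out. For the interaction, 11.0% to 17.2% were lower in the other settings named and 13.5% to 16.7% with 1 library left out. The cause of the shifts in the counts was not tested.

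The replicate numbers are not stated to mark shared animals or days, and same-numbered libraries did not deviate together, with correlations between -0.24 and 0.23. The replicate block moved the interaction count above from 1 to 2 (Ccne1 was added), and under it Mad2l1 was no longer called for Atg5 loss with PBS (3 genes higher) nor Mcm4 for BLM in Atg5-/- cells (18 genes). FPKM without fragment counts limit what can be read of genes near 0, such as Mki67, Cenpe and Cenpf.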
